A study of Mus musculus with 4 samples.

Results

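CD45, the surface phosphatase carried by nearly every nucleated blood cell, and 8 genes known from T lymphocytes were followed through RNA-seq of sorted mouse long-term haematopoietic stem cells (LT-HSCs). The 9 genes were named one by one as a group of T lymphoid receptors and signalling genes: Ptprc (CD45), Cd247, Zap70, Cd28, Icos, Ctla4, Il2ra, Il15ra and Xcl1. All 9 were among the 4167 genes of the deposited table that were analysed here, which cover most of chromosome 1 and the start of chromosome 2. LT-HSCs, the rare marrow cells that renew themselves and feed all blood lineages, were sorted by flow cytometry from tibia and femur. There were 2 libraries from wild-type mice (WT 1 and WT 2) and 2 from ATF4 KO mice (ATF4 KO 1 and ATF4 KO 2), prepared from polyadenylated RNA with an adapted Smart-seq2 protocol. The series describes the mice as a conditional knockout of Atf4, a transcription factor that cells use in the integrated stress response. The Cre driver, the age, sex and strain of the mice, the sorting gates and whether a library came from 1 animal are not given in the sources used here. P-values therefore measure only the spread between these libraries, which may be technical.

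CD45 removes phosphate from tyrosines of Src-family kinases and so sets how readily antigen receptors signal, and it serves as the general marker of white blood cells. In T cells the zeta chain CD247 is phosphorylated when the antigen receptor binds, and the kinase ZAP-70 docks on it. CD28 and ICOS add a costimulatory signal, while CTLA-4 competes with CD28 for the same ligands and restrains it. In a sort of stem cells, transcripts of these genes are commonly read as a check for lymphocytes among the sorted cells, although stem and progenitor cells can also carry low levels of lymphoid transcripts. In bulk RNA, fewer cells of a type and less RNA per cell cannot be told apart.

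The genes most specific to T cells, those of the CD3 chains and the T cell receptor, were not analysed here, nor was Atf4 itself, so neither the T lineage nor the genotype could be checked by its defining gene. Of 14 LT-HSC markers, 2 were in the table and both were read in WT: Slamf1, the gene of CD150, with 362 and 186 reads, and Gfi1b, a repressor of stem and progenitor cells, with 1579 and 1225. Neither had a read in ATF4 KO, and both were called lower there on the deposited scale (limma, adjusted p = 0.0424 and 0.00286). Of all 1199 tested genes 22.4% were called lower. The ATF4 KO values of both markers were set by the transform described below, as for all genes with 0 reads there. Among 676 such tested genes 79.9% were called, so no loss of these markers is read from the calls. The progenitor markers Cd34 and Cd48, which LT-HSCs carry at low levels, were high, and Cd34 had 18288 and 15275 reads. All values were deposited on a log2 scale made with a regularized transform, from which the read numbers of 1906 of 1928 genes were recovered as exact whole numbers. The summed reads of these genes were 1005965 and 824111 in WT and 36236 and 49217 in ATF4 KO. The size factors, the relative depths used by the transform, were 21.7 and 17.2 in WT and 0.0360 and 0.0372 in ATF4 KO. ATF4 KO 1 thus had 3.60% of the summed reads of WT 1 but 0.165% of its size factor. A level in ATF4 KO relative to WT depends on which of these scales is used, by 21.4-fold for ATF4 KO 1 and 28.1-fold for ATF4 KO 2. In the ATF4 KO libraries 57% and 51.9% of reads fell on 10 genes, against 13.3% and 14.2% in WT.

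All 9 genes were read in both WT libraries, and 3 of them were read in ATF4 KO. Ptprc had 5013 reads in WT 1 and 3424 in WT 2. It had 0 reads in ATF4 KO 1 and 22 in ATF4 KO 2. Ptprc (chromosome 1, 138062861 to 138175708 on GRCm38, minus strand) was thus abundant in both WT libraries and split between the ATF4 KO libraries.

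Of the receptor signalling genes, Cd247 (chromosome 1, 165788681 to 165877277) had 90 and 46 reads in WT 1 and WT 2. Zap70 (chromosome 1, 36761798 to 36782818) had 96 and 26. Both had 0 reads in each ATF4 KO library. The 3 costimulatory and inhibitory receptors lie next to each other on chromosome 1, with Cd28 at 60716800 to 60773359, Ctla4 at 60887000 to 60915832 and Icos at 60977927 to 61000320. Cd28 had 67 reads in WT 1 and 24 in WT 2, Icos had 85 and 44, and Ctla4 had 13 and 6. None of the 3 had a read in ATF4 KO. Xcl1, which encodes a chemokine of activated T cells and natural killer cells (chromosome 1, 164931644 to 164935527), had 32 and 16 reads in WT and 0 in ATF4 KO.

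The cytokine receptor genes lie side by side on chromosome 2, Il2ra at 11642807 to 11693193 and Il15ra at 11705290 to 11734317. Il2ra encodes the alpha chain (CD25) of the high-affinity interleukin 2 receptor of activated and regulatory T cells. It had 22 reads in WT 1, 8 in WT 2, 11 in ATF4 KO 1 and 0 in ATF4 KO 2. Il15ra encodes the chain that holds interleukin 15 and presents it to neighbouring cells, and it is made by many cell types besides T cells. It had 596 and 475 reads in WT, 1 in ATF4 KO 1 and 0 in ATF4 KO 2. ATF4 KO was thus without reads of 6 of the 9 genes, and the other 3 each had reads in 1 ATF4 KO library only.

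**Figure D1:**
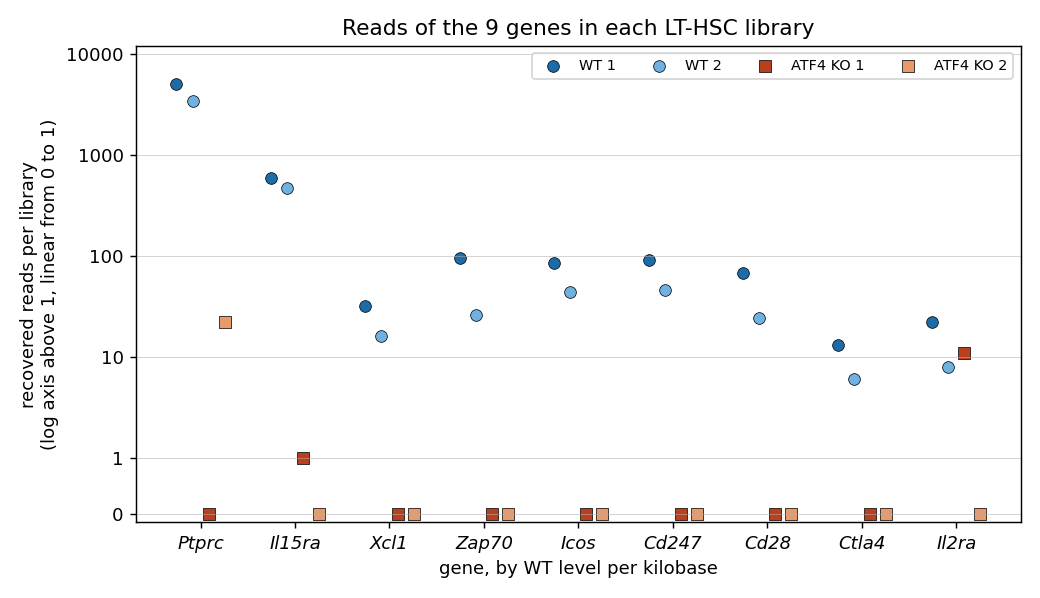
Recovered reads of the 9 genes (vertical axis, logarithmic above 1 and linear from 0 to 1) in each of the 4 libraries, with WT as circles and ATF4 KO as squares, 1 point per library. Every gene was read in both WT libraries, from 6 reads of Ctla4 to 5013 of Ptprc, while 6 of the 9 stood at 0 in both ATF4 KO libraries.

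Within WT, Ptprc and Il15ra stood well above the other 7 genes. Levels were compared between genes as reads divided by the size factor and by the length of all annotated exons in kilobases. Ptprc was at 12.6 and 10.9 normalised reads per kilobase in WT 1 and WT 2. Its mean level was above that of 84.4% of the 1451 protein-coding genes with known reads. Il15ra followed at 6.17 and 6.23, above 75.8% of those genes. Xcl1, whose transcript is short, came next at 2.82 and 1.78. The WT values of these 3 genes did not overlap with each other or with any gene below them.

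The remaining 6 genes formed a run of levels in which each overlapped with its neighbour. Zap70 was at 1.48 and 0.507 normalised reads per kilobase, Icos at 1.14 and 0.748, and Cd247 at 0.777 and 0.503. Cd28 was at 0.504 and 0.229, Ctla4 at 0.257 and 0.150, and Il2ra at 0.177 and 0.0817. With the WT libraries pooled, the order within this run, from Zap70 to Il2ra, therefore does not stand beyond their spread between neighbours. Within each WT library taken alone the order was the same, except that Zap70 and Icos changed places. Whether that order exceeds counting error was not tested. These 6 genes lay above 39.3% (Il2ra) to 54.4% (Zap70) of protein-coding genes, in a table where many genes are barely read.

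Set against Ptprc as the reference, the receptor signalling genes were a small part of the signal. Cd247 amounted to 6.17% and 4.62% of the Ptprc level per kilobase in WT 1 and WT 2, and Zap70 to 11.7% and 4.65%. Cd28 was at 4.0% and 2.10%, Ctla4 at 2.04% and 1.38%, and Il15ra at 49.0% and 57.1%. Xcl1 was at 22.4% and 16.4%, Icos at 9.05% and 6.86%, and Il2ra at 1.41% and 0.749%. These shares depend on the length given to Ptprc, whose annotated exons add up to 18.3 kb while its longest transcript has 5.74 kb. With the longest transcript of each gene, Cd247 was at 3.49% and 2.61%, Zap70 at 4.90% and 1.94%, Cd28 at 1.76% and 0.926%, Ctla4 at 0.770% and 0.520%, and Il15ra at 29.5% and 34.4%. The order of the 9 genes was the same on that length, except that Cd247 came before Icos. With no length correction Xcl1 moved from rank 3 to rank 7 and Cd247 from rank 6 to rank 3, while Ptprc and Il15ra stayed first and second.

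**Figure D2:**
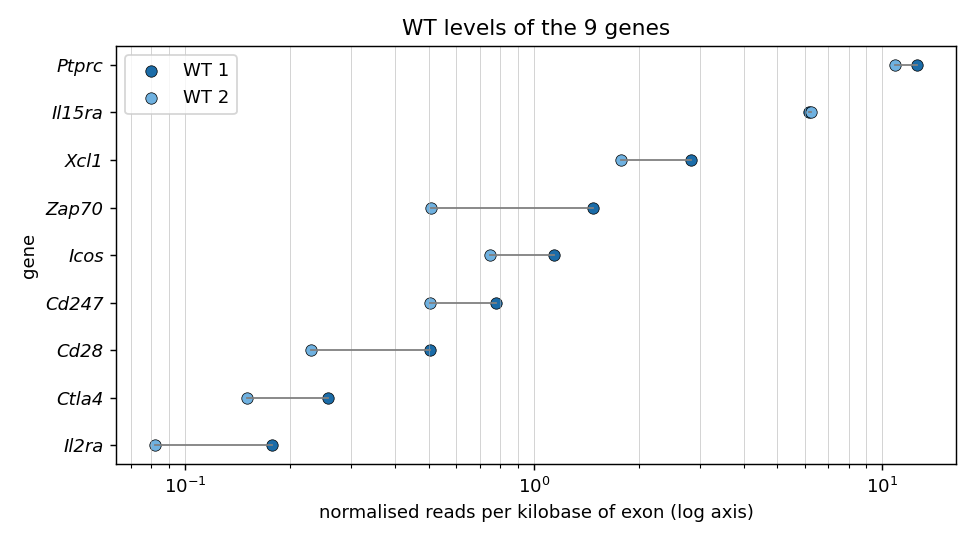
WT level of each gene in normalised reads per kilobase of annotated exon (horizontal axis, logarithmic), with WT 1 and WT 2 as separate points joined by a line, in order of the mean. Ptprc, Il15ra and Xcl1 were apart from the rest, and the lines of neighbouring genes overlapped from Zap70 down to Il2ra.

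The WT libraries differed in these transcripts. All 7 genes other than Ptprc and Il15ra were at least 1.5-fold higher in WT 1 than in WT 2, and together they had 405 reads in WT 1 and 170 in WT 2. This fold was chosen after the values were seen. Among all 328 genes with similar read numbers (19 to 136 in WT), 27.7% were higher by that much, and 58.5% were higher at all. Zap70 was 2.92-fold higher after normalisation, with an exact 95% interval from 1.87 to 4.69. Cd28 was 2.2-fold higher (1.36 to 3.68), Cd247 1.55-fold (1.07 to 2.25) and Icos 1.53-fold (1.05 to 2.25). The intervals of Il2ra (ratio 2.17), Ctla4 (1.71) and Xcl1 (1.58) included 1. Intervals above 1 were thus seen in 4 of 7 genes, against 17.4% of the 328 genes. The median log2 ratio was 0.77 for the 7 genes and 0.16 for the 328. These intervals cover counting error only, because PCR copies of 1 molecule can give several reads, and the comparison is of 2 libraries of 1 genotype with no replicate of either.

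The more abundant pair differed less. Ptprc was 1.16-fold higher in WT 1 (1.11 to 1.21), and Il15ra had a ratio of 0.991 (0.877 to 1.12). Among the 9 genes the difference between the WT libraries was therefore seen in the low ones. It was small in Ptprc, the pan-leukocyte reference, and was not detectable in Il15ra. Outside the 9 it was not confined to genes with few reads, as given below. Dividing by summed reads in place of size factors makes each of these ratios 1.04 times as large.

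Other lymphoid genes of the table showed a similar direction in part. Fasl, the death ligand of cytotoxic T and natural killer cells, had 60 reads in WT 1 and 5 in WT 2, a ratio of 9.48 (3.84 to 30.2). Slamf7, a receptor of natural killer and plasma cells, had 136 and 42 reads, a ratio of 2.56. Both were picked after their values were seen. The inhibitory receptor gene Pdcd1 (PD-1) had 31 and 13 reads, and its interval (0.957 to 3.92) included 1. Of 3 B cell markers that were present 2 had at least 10 WT reads, and both were higher in WT 1: Fcrla with 57 and 25 reads, and Fcmr with 14 and 0. The ratio was 0.934 for Cd244a, from the natural killer cell list, and 0.924 for Tnfsf4, the ligand of OX40. Both intervals included 1. The myeloid markers went the other way: of 5 with at least 10 WT reads none was higher in WT 1. The intervals of Fcgr3, Fcgr2b, Fcer1g and Cxcr2 lay below 1. Among the 328 genes with 19 to 136 WT reads, 8.23% of intervals lay below 1. These myeloid genes had more reads and so narrower intervals, and no share was taken over genes like them. The median log2 ratio was -0.38 for the 5 markers and 0.01 for all 1255 genes with at least 10 WT reads. Cd48, which LT-HSCs carry at low levels, had a ratio of 0.624 and Cd34, of the same list, one of 0.945. Of the LT-HSC markers, Slamf1 had a ratio of 1.54 (1.28 to 1.84) and Gfi1b one of 1.02 (0.944 to 1.1). An excess in WT 1 was thus not particular to lymphoid genes.

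Summed over the marker lists, the 5 of 12 T cell markers in the table, all of them among the 9 genes, had 351 reads in WT 1, 146 in WT 2 and 0 in either ATF4 KO library. The 3 of 16 B cell markers had 73 and 26 in WT and 0 in ATF4 KO. The 5 of 14 natural killer cell markers had 1013 and 756 in WT and 0 in ATF4 KO, with Sh2d1b2 at 0 in every library. Most of these WT reads were from Cd244a (807 and 682), so natural killer cells are not read from this sum. Of 16 myeloid markers 6 were in the table, and the 5 with recovered reads had 2336 and 2305 reads in WT. They had 1571 and 901 in ATF4 KO, nearly all from Fcer1g, the signalling chain of Fc receptors, with 1569 and 901. The part of other cells in the values of the 9 genes was not tested.

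**Figure D3:**
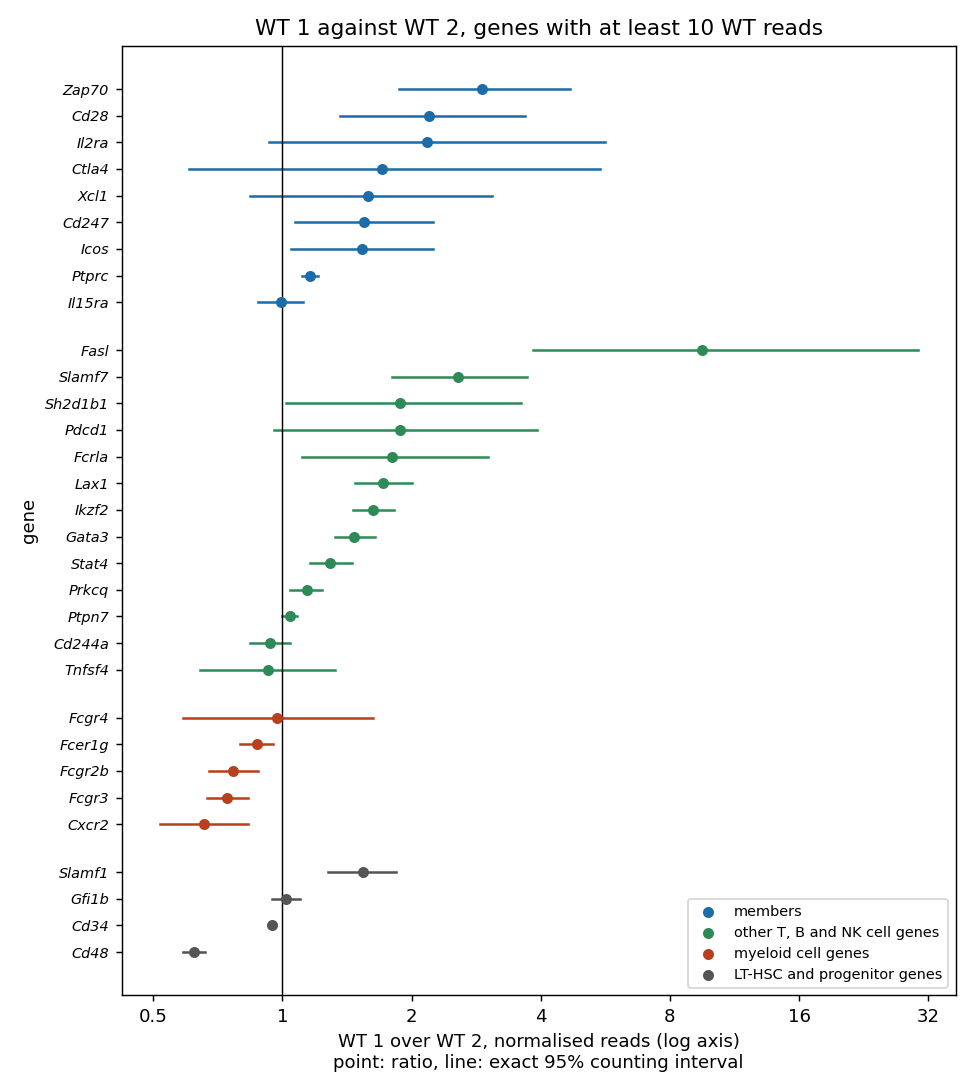
Ratio of normalised reads, WT 1 over WT 2 (horizontal axis, logarithmic), with exact 95% counting intervals as lines, for the 9 genes (members) and for other marker and pathway genes with at least 10 WT reads that are reported here. The 7 low T lymphoid genes lay at 1.53 or above while the myeloid genes lay below 1. Fcmr, with 0 reads in WT 2, has no ratio and is not drawn.

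For the low T lymphoid genes, the deposited log2 values showed little of this difference, except for Il2ra. Zap70 stood at 1.99 and 1.85 in WT 1 and WT 2, where its normalised reads give log2 values of 2.14 and 0.60. Ctla4 stood at 1.04 in both, against -0.74 and -1.52. The transform shrinks values towards the gene's own mean. The deposited values of the 6 genes with 0 ATF4 KO reads thus hide most of the 1.5-fold and larger differences between the WT libraries. Il2ra kept most of its difference, at 0.28 and -0.67 against log2 values of 0.02 and -1.10.

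The genotypes were compared to see how stem cell transcripts change with the loss of ATF4. In that comparison 2 of the 9 genes passed the threshold (limma, adjusted p under 0.05), both slightly higher in ATF4 KO, and 0 lower. Of all 1199 tested genes 47.0% passed, 24.6% higher and 22.4% lower, so the share among the 9 was below the background. Ctla4 was at 1.04 in both WT and 1.06 in both ATF4 KO libraries, a difference of 0.02 ± 0.00075 (SE; limma, adjusted p = 0.00225). Xcl1 was at 1.47 and 1.46 in WT and 1.52 in both ATF4 KO libraries, a difference of 0.06 ± 0.0045 (SE; limma, adjusted p = 0.00464). Neither gene had a read there. Both calls were lost when limma's prior had no trend (adjusted p = 0.306 and 0.0952).

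Values of genes with 0 reads were set by the transform. It draws a library with 0 reads from the gene's own mean towards 2.36 in ATF4 KO 1 and 2.31 in ATF4 KO 2, so a gene with a low WT value comes out higher in ATF4 KO. Among 676 tested genes that had no ATF4 KO read at all, 79.9% passed the threshold. The same placement held for Cd28, Icos, Cd247 and Zap70. Cd28 was at 1.80 and 1.74 in WT and 1.86 in both ATF4 KO libraries. Icos was at 2.01 and 1.93 against 2.07 and 2.06, and Cd247 at 2.05 and 1.96 against 2.10 and 2.09. Zap70 was at 1.99 and 1.85 against 2.02 and 2.01. The difference was 0.09 for each of these 4 genes, and none passed (limma, adjusted p = 0.0936 for Cd28, 0.128 for Icos, 0.168 for Cd247 and 0.299 for Zap70). Leaving out WT 1 moved these differences to between 0.12 and 0.17, and leaving out WT 2 moved those of Cd28, Icos and Cd247 to between 0.04 and 0.06. Calls from those fits are not used, because their spread comes from the ATF4 KO values alone, which the transform set. In all, 7 of the 9 genes had both ATF4 KO values above both WT values, as had 40.5% of tested genes. The median difference was 0.09 over the 9 genes and 0.02 over all tested genes.

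The direction of 5 of these 6 genes turned with the scale, and that of Ctla4 did not. With voom, limma's method for counts, on the recovered reads with summed reads as library sizes, Icos fell by 2.48 (adjusted p = 0.0276) and Cd247 fell by 2.55 (adjusted p = 0.0274), where 48.0% of all tested genes passed (46.5% of all tested genes lower and 1.53% higher) and the median of all genes was -3.37. Cd28 (-1.85), Zap70 (-2.14) and Xcl1 (-1.05) had negative differences and did not pass, and Ctla4 (0.20) did not pass either. With size factors as library sizes the median of all genes was 1.25 and 0 of the 9 passed, against 25.7% of all genes (19.5% higher and 6.20% lower). Ctla4 and Xcl1 lost their calls (limma's voom, adjusted p = 0.132 and 0.0638). With 0 reads in ATF4 KO, no direction can be read for these 6 genes.

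Few reads of these genes were expected in ATF4 KO. At WT levels and by size factors, both ATF4 KO libraries together would have given 0.249 reads of Cd247, 0.237 of Icos, 0.217 of Zap70, 0.164 of Cd28, 0.0879 of Xcl1 and 0.0347 of Ctla4. With 0 reads seen, which allows up to 3, neither loss nor retention was detectable at this depth. By summed reads the expected numbers were 6.21, 5.89, 5.43, 4.09, 2.19 and 0.863. On that scale, and by counting error over the pair alone, the limit of 3 reads would put Cd247 at least 2.07-fold lower in ATF4 KO. The same bound would be 1.96-fold for Icos, 1.81-fold for Zap70 and 1.36-fold for Cd28, while Xcl1 and Ctla4 had no bound above 1. These bounds leave out the spread between the ATF4 KO libraries, so no direction is read from them.

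Ptprc was the only gene of the 9 with more than 3 expected reads over the pair on both scales. Its deposited values were 7.68 and 7.52 in WT, 4.29 in ATF4 KO 1 and 8.78 in ATF4 KO 2, so the groups overlapped. The difference was -1.07 ± 1.91 (SE) and missed the threshold (limma, adjusted p = 0.661). Each ATF4 KO library decided its sign: without ATF4 KO 1 Ptprc was higher by 1.18, and without ATF4 KO 2 it was lower, at -3.31. The spread of those fits is that of WT only, and their calls are not used. By size factors 7.74 reads were expected in ATF4 KO 1, where 0 were seen, and 8.0 in ATF4 KO 2, where 22 were seen. ATF4 KO 1 was thus below and ATF4 KO 2 above the expected number. Over the pair the ratio of seen to expected was 1.4 (exact 95% Poisson interval from 0.876 to 2.12), an average of these opposite deviations whose interval does not cover the spread between the libraries. By summed reads 390.4 were expected over the pair and the ratio was 0.0563 (0.0353 to 0.0853). The pan-leukocyte reference thus lay on opposite sides of its WT level in the ATF4 KO libraries by size factors, and was below it in both by summed reads, where 166 and 225 reads were expected.

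A read number of 0 in 1 ATF4 KO library beside many in the other was common. Of 139 genes with at least 11 reads in an ATF4 KO library, a number taken from Il2ra, 51.8% had 0 in the other. Among the 37 genes with a WT level at or above that of Ptprc, only Ptprc and Ptpa had 0 reads in ATF4 KO 1. Ptpa, an activator of protein phosphatase 2A, was also nearest to Ptprc in its 4 deposited values among 922 protein-coding genes (Euclidean distance 1.42), with 4282 and 4138 reads in WT, 0 in ATF4 KO 1 and 57 in ATF4 KO 2. Trmt1l (distance 1.88) and Mndal (1.90) followed, each with 1 read in ATF4 KO 1 and with 20 and 25 in ATF4 KO 2. Inside the Ptprc gene, on the same strand, the annotation places A130071D04Rik, an unconfirmed transcript model whose exons do not overlap those of Ptprc. It had 49 and 22 reads in WT, 0 in ATF4 KO 1 and 65 in ATF4 KO 2. Its ATF4 KO reads were thus in the same library as those of Ptprc. The proportion was unlike that in WT: it had more reads than Ptprc (22) in ATF4 KO 2, and far fewer in WT, where Ptprc had 5013 and 3424.

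Il2ra was the only gene of the 9 with more reads in ATF4 KO than expected on both scales. Its deposited values were 0.28 and -0.67 in WT against 7.70 (ATF4 KO 1) and 2.34 (ATF4 KO 2). Both ATF4 KO values were above both WT values, although ATF4 KO 2 had no read. The difference was 5.22 ± 2.55 (SE) and missed the threshold (limma, adjusted p = 0.233). With voom it also missed, at 6.53 by size factors (limma's voom, adjusted p = 0.100) and 1.39 by summed reads (adjusted p = 0.617). Il2ra entered the test only through its ATF4 KO values, and without ATF4 KO 1 it was not tested. The 11 reads compared with 0.0541 expected over the pair by size factors, a ratio of 203 (102 to 364), and with 1.35 by summed reads, a ratio of 8.15 (4.07 to 14.6). All 11 came from 1 library. Of the 879 genes with a WT level at or below that of Il2ra, 0.910% (8 genes, Il2ra among them) had at least 11 reads in ATF4 KO 1. Both limits were the values of Il2ra itself, so nothing is concluded from the size of this share.

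Genes around Il2ra did not share this. Il15ra, the next gene, had 1 read in ATF4 KO 1, as had Pfkfb3, a glycolytic regulator, while the splicing factor gene Rbm17 had 3 and the helicase gene Fbh1 had 0. Il15ra itself was at 4.71 and 4.72 in WT, 4.67 in ATF4 KO 1 and 2.95 in ATF4 KO 2, the only one of the 9 with both ATF4 KO values below both WT values, as had 40.7% of tested genes. The difference was -0.91 ± 0.73 (SE) and missed the threshold (limma, adjusted p = 0.383). It was -1.77 without ATF4 KO 1 and -0.05 without ATF4 KO 2, in fits whose spread comes from the WT values alone. The 1 read stood against 2.02 expected over the pair by size factors, a ratio of 0.496 (0.0126 to 2.76), and against 49.9 by summed reads, a ratio of 0.0200 (0.000507 to 0.112).

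**Figure D4:**
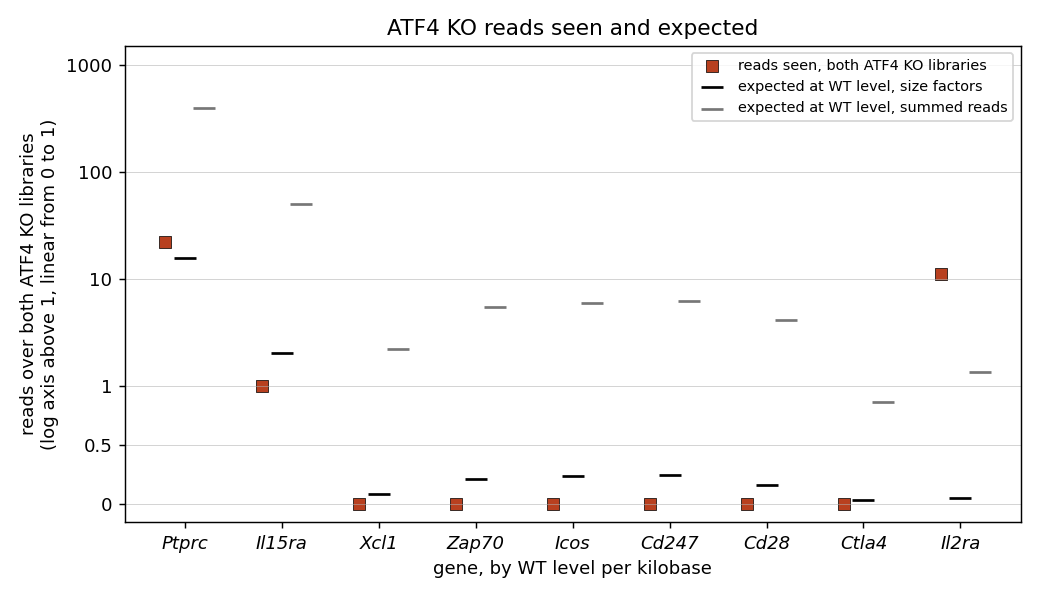
Reads seen over both ATF4 KO libraries (squares) and reads expected at the WT level by size factors (black bars) and by summed reads (grey bars) for each gene, on an axis that is logarithmic above 1 and linear from 0 to 1. Il2ra lay above both expectations, Ptprc (22 reads) between them, and the other 7 genes below both.

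The wider pathways were thinly covered. Of 29 further genes of T cell receptor signalling and costimulation 4 were in the table, and of these 1 was higher in ATF4 KO and 0 lower. Of all 1199 tested genes 24.6% were higher and 22.4% lower, so such a count is near the background. The 1 was Pdcd1, by 0.05 (limma, adjusted p = 0.00648), with 0 reads in ATF4 KO. Ptpn7, a phosphatase of MAP kinases in blood cells, was the most abundant of them with 5912 and 4485 WT reads and 6 and 3 in ATF4 KO. Prkcq, the kinase of the T cell synapse, had 1140 and 793 in WT, and the adaptor gene Lax1 had 559 and 257. None of these 3 passed.

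Of 24 T cell regulators and effectors 6 were tested, 1 higher and 2 lower, where 24.6% of all tested genes were higher and 22.4% lower. Gata3, a transcription factor of T cells that is also active in stem cells, had 1036 and 555 WT reads and fell by 2.24 (limma, adjusted p = 0.00710). Stat4, which transmits interleukin 12 signals, had 846 and 516 and fell by 2.06 (limma, adjusted p = 0.00421). Tnfsf4 had 69 and 59 and differed by 0.09 (limma, adjusted p = 0.0108). All 3 had 0 ATF4 KO reads, so these differences too were set by the transform. Ikzf2, the Helios gene, did not pass.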

How the data were processed

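Polyadenylated RNA of sorted LT-HSCs was measured in 2 WT and 2 ATF4 KO libraries, grouped by sample title. The deposited table holds 1 log2 value per gene and library. HISAT2 2.2.1, featureCounts, DESeq2 and GRCm38 are named, without role or order, in the submitters' processing notes. The strand setting and how each column was counted are not given in the sources used here. An incomplete last line was left out.

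The log2 values met the equation of a regularized logarithm exactly, with 0.164 as the ridge weight and fitted reads of at least 0.5. Whole reads were recovered for 1906 genes to within 1e-06 (largest residual 3.56e-10) and for 22 genes were not. That these whole numbers are reads is inferred. The design had left the unit open. As the values were logarithms, limma 3.58.1 (R 4.3.3, statmod 1.5.0; trend, robust) was fitted to them with no pseudocount, over genes at 1 or above in at least 2 libraries. Benjamini-Hochberg adjustment ran over all tested genes. Recovery and fit were tested on simulated data.

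Expected ATF4 KO reads are the mean normalised WT reads times the size factors, or scaled by summed reads. Where no read was seen, 3 reads over the pair were the limit. Intervals (95%, exact, scipy 1.17.1) cover counting error only. Gene models are from GENCODE M21, in which 98.8% of symbols were found. Exons of Cd247 overlap those of Pou2f1 (opposite strand) and Gm16565, and exons of Xcl1 overlap Gm20743, so reads of these genes may be shared.

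The 9 genes, the gene lists and the marker lists were chosen with earlier results of these data known. Named genes were all 9, list genes past the threshold, the 3 of each list with the highest WT level, and the 3 protein-coding genes nearest to Ptprc. Neighbours of Il2ra, overlapping models and genes compared between WT libraries were added after their values were seen. Alternatives were no filter, no trend, a replicate block, each library left out, other gene lengths or none for WT levels, and genes with an ATF4 KO read only. Voom on the recovered reads was chosen after seeing the data. Some genes of the lists are not reported here.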

Additional observations from a re-analysis of the deposited data

How the results depend on the processing

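Of all genes, 563 were called by limma. This became 1315 with no filter, 291 with no trend in the prior, 302 with voom and size factors (chosen after seeing the data), and 634 to 881 with each library left out (fits whose spread comes from 1 genotype alone), the higher counts being 881 without ATF4 KO 1 and 862 without ATF4 KO 2. Among genes with an ATF4 KO read only it became 0, while 83 had an unadjusted limma p under 0.05. Voom with summed reads, also chosen after seeing the data, called 565 (18 higher and 547 lower), voom with size factors 229 higher and 73 lower, limma with no trend 28 higher and 263 lower, and limma with no filter 1037 higher and 278 lower, against 295 and 268. The cause was not tested. The direction was reversed for Ptprc without ATF4 KO 1 (1.18, against -3.31 without ATF4 KO 2) and, with voom and summed reads, for Cd28 (-1.85), Icos (-2.48), Cd247 (-2.55), Zap70 (-2.14) and Xcl1 (-1.05). Cd28 passed with no filter (limma, adjusted p = 0.0450). Same-numbered libraries did not deviate together (correlation -0.076 over 1199 genes). This cannot exclude pairing, because 676 of these genes had no ATF4 KO read and the transform set their ATF4 KO values. The numbers were not taken as pairs. With a replicate block 510 genes were called and all 9 members kept their side of the threshold. With 2 libraries a group, the smallest two-sided p of an exact permutation test is 0.333. Depth limits all members in ATF4 KO except Ptprc, with at most 2.02 reads expected over the pair by size factors.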
